A study of Mus musculus with 8 samples.

Results

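The genes of MHC class II antigen presentation were examined in neutrophils from the marrow of WT and Padi4 KO mice, with and without R848, a synthetic agonist of TLR7. The 8 genes were taken by symbol from a table of 24421 genes. They were Cd74 (the invariant chain), H2-Aa, H2-Ab1 and H2-Eb1 (chains of the classical class II molecules), H2-DMa and H2-DMb1 (the peptide exchange factor H2-DM), Ctss (cathepsin S) and Ciita (the class II transactivator). All 8 symbols were found. Testing required a count in 2 or more of the 8 libraries. By this filter 7 of the 8 genes were tested, among 12254 genes in all, and Ciita was not.

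The neutrophils came from 8-week-old C57BL/6 female mice and were sorted magnetically from bone marrow. Padi4 KO mice carry Padi4-/-, a deletion of exon 1 of the gene for peptidylarginine deiminase 4. The 4 groups of 2 libraries were WT Nostim, WT R848, Padi4 KO Nostim and Padi4 KO R848, where R848 means 1 µg/ml for 6 h and Nostim means left unstimulated. The sample titles give 0 h for Nostim and the protocol gives 6 h, so that the effect of R848 and that of 6 h in culture cannot be told apart if the titles hold. Duplicates are not stated to come from separate mice, and p-values measure only the spread between these libraries, which may be technical.

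Class II molecules display peptides from the endosome to CD4 T cells. Their chains assemble around the invariant chain, which endosomal proteases cut down step by step, cathepsin S near the end, until a small remnant is left in the peptide groove. H2-DM then exchanges this remnant for antigenic peptide. CIITA is recruited to a shared promoter module made of the X and Y boxes and switches on the chain genes, the invariant chain and H2-DM together. B cells, dendritic cells and macrophages are the usual class II expressing cells of bone marrow. Resting neutrophils express little.

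The promoter module is shown because class II genes are known to be switched on through it. Among the windows found, those of H2-Eb1 and H2-DMb1 held both of its patterns. RefSeq promoter windows on GRCm38.p6, the assembly of mm10, were found for 5 of the 8 genes (H2-Aa, H2-Eb1, H2-DMa, H2-DMb1 and Ctss). The 250 bases before the annotated start were searched on both strands for AAC and ATGATG with any 2 bases between them, a pattern of the X box, for TGATTGG, a pattern of the Y box around its CCAAT element, and for GAAA and GAAA with any 2 bases between them, a pattern of interferon-response elements. The patterns were written after these windows had been read, and they do not overlap one another in the windows shown. Below, capitals mark the matches, 5′ to 3′ on the strand of the gene. H2-Aa lies at chr17:34287824-34288073 on the minus strand, H2-Eb1 at chr17:34305617-34305866 on the plus strand and Ctss at chr3:95526536-95526785 on the plus strand.
H2-Aa: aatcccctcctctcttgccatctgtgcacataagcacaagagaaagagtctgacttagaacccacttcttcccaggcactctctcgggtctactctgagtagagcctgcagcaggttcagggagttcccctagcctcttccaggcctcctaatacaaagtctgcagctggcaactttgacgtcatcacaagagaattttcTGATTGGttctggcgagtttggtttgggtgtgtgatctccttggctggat
H2-Eb1: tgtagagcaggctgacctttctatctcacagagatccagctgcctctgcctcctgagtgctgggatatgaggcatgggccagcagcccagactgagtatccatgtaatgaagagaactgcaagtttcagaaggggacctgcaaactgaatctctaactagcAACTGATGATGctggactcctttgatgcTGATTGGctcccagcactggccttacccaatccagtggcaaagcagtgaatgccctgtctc
Ctss: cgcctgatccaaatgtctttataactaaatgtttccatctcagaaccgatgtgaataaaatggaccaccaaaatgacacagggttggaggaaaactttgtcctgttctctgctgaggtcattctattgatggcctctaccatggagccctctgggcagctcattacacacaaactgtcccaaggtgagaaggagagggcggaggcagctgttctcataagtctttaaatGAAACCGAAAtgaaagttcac

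The X-box pattern was matched in H2-Eb1 and H2-DMb1 with the same letters, AACTGATGATG, 17 and 18 bases before a Y-box pattern. The neighbouring class II genes H2-DMb2 (AACCGATGATG) and H2-Ob (AACAAATGATG) held the same pair, 18 and 15 bases apart. The X-box pattern occurred in 0.119% of 32851 windows and both patterns together in 9 windows (0.0274%), which belonged to 7 genes, the 4 just named and Nubp2, Spsb3 and Gm38969. Since the patterns were written after the class II windows had been read, these shares are no test of the matches. H2-Aa and H2-Oa held the Y-box pattern alone, which 7.23% of windows hold. Ctss held the interferon-response pattern (2.98% of windows) and neither box, and the windows of H2-DMa held none of the 3 patterns. The matches are descriptions of letters in a window, and no binding was measured. A box written in other letters is missed by these exact patterns, so a window without a match is not shown to lack the box.

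**Figure D1:**
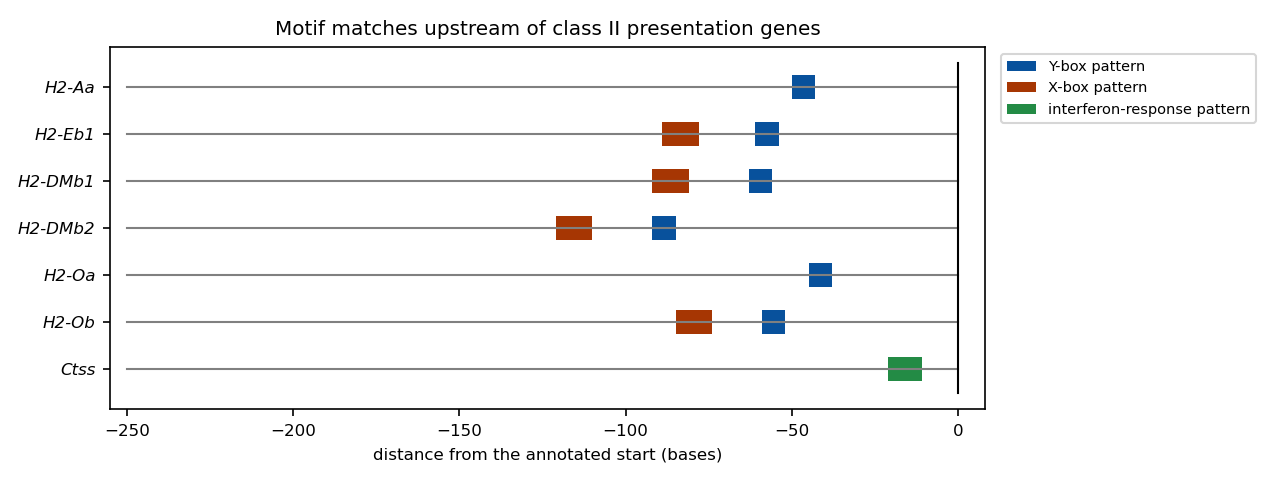
Positions of the 3 patterns in the 250 bases before the annotated start, x axis in bases from the start, 1 line per window that held a match. The X and Y patterns stand as a pair, 15 to 18 bases apart, in H2-Eb1, H2-DMb1, H2-DMb2 and H2-Ob, and Ctss has the interferon-response pattern from position -21 to -12.

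The libraries held between 562446 and 1177972 counts on genes. A floor of 3 counts therefore lies between 2.55 and 5.33 CPM of library totals (counts of each library brought to the same total). The CPM of single genes are scaled further (TMM factors). There 3 counts were 2.18 CPM in Padi4 KO Nostim replicate 2 and 6.12 in WT R848 replicate 1. Counts of Padi4, the deleted gene, were 590 and 527 (WT Nostim), 166 and 234 (WT R848), 40 and 54 (Padi4 KO Nostim) and 34 and 21 (Padi4 KO R848). Of 13 neutrophil marker genes all were detected, with a summed level between 125447 and 169190 CPM of library totals, and 12 were lower than WT in Padi4 KO Nostim and 10 in Padi4 KO R848 (14.4% and 7.84% of all genes). Erythroid markers stood apart: 9 of 10 tested were higher in Padi4 KO Nostim and 10 of 10 in Padi4 KO R848 (9.54% and 9.44% of all genes), with sums of 1256 to 1485 CPM of library totals in Padi4 KO and 31.4 to 147 in WT. Of the stromal and endothelial markers 5 of 9 tested fell after R848 in each genotype (10.8% of all genes in WT and 8.83% in Padi4 KO), and 3 were higher in Padi4 KO Nostim. T and NK cell markers (sum at most 42.1 CPM of library totals) and eosinophil, basophil and mast cell markers (at most 56.2) had few counts. In bulk samples fewer cells of a type and less RNA per cell cannot be told apart.

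Of the 8 genes, 6 averaged under 10 counts, as did 5342 of the 12254 genes tested. The exceptions were Cd74 and Ctss. Per kilobase of exon, Ctss was the highest of the 8 in WT Nostim with 46.8 ± 14.7 CPM per kb (SD, n = 2 here and in the following group values), against 9.18 ± 0.919 for Cd74 and 8.90 ± 4.79 for H2-DMb1, whose levels did not differ beyond their spread. H2-DMa followed with 4.36 ± 2.07 CPM per kb, H2-Ab1 with 2.70 ± 0.209 and H2-Eb1 with 0.430 ± 0.609, while H2-Aa and Ciita were at 0 counts in both WT Nostim libraries. In CPM the 2 H2-DM genes did not differ beyond their spread in WT Nostim (H2-DMa 11.6 ± 5.51, H2-DMb1 12.5 ± 6.73). Their order per kb follows the annotated exon lengths of 2668 and 1404 bases. In WT R848 the gap at the top narrowed. Cd74 reached 25.1 ± 7.27 CPM per kb and Ctss 26.2 ± 7.58, within each other's spread, and H2-DMa came to 0.714 ± 0.0720. In Padi4 KO the level of Ctss was 103 ± 17.8 CPM per kb in Nostim and 43.5 ± 2.26 in R848, and that of Cd74 12.02 ± 1.06 and 28.8 ± 6.996.

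**Figure D2:**
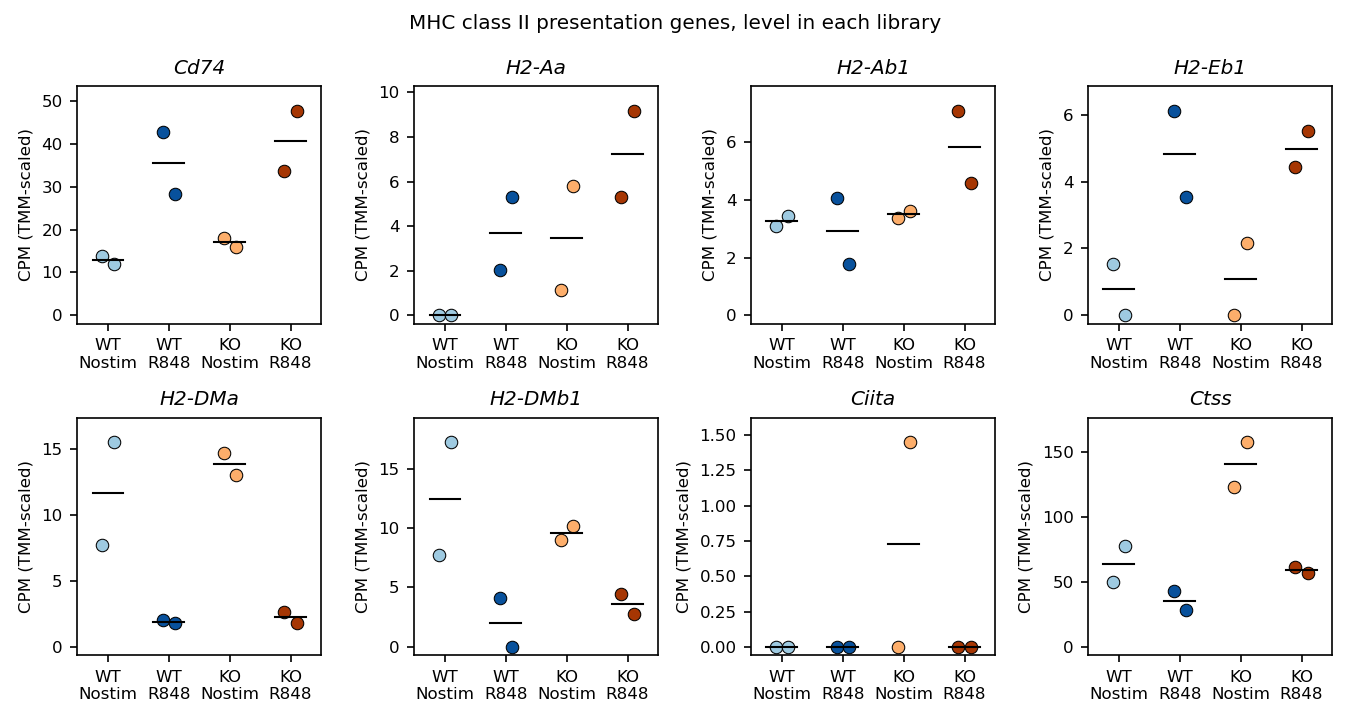
CPM of the 8 class II presentation genes in each library (points) with the mean of the 2 libraries of a group (line), 1 panel per gene with its own y axis. Cd74 is higher in all 4 R848 libraries than in the 4 Nostim libraries, H2-DMa and H2-DMb1 are lower, and Ctss is highest in Padi4 KO Nostim.

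The first question was how the genes responded to R848 in each genotype. The response was not in 1 direction: Cd74 rose in both genotypes, both H2-DM genes fell in both, and Ctss fell more than 2-fold in Padi4 KO. A response was called at an adjusted p (Benjamini-Hochberg over all genes tested, edgeR quasi-likelihood test) below 0.1 with more than a 2-fold change. In WT, 2 of the 7 tested genes were called higher (Cd74 and H2-Aa), where 7.18% of all genes were, and 2 lower (H2-DMa and H2-DMb1), where 10.8% were. H2-Aa was set against a group at 0 counts and passed the 2-fold limit only by its fitted fold, since its bound of 1.25-fold does not reach it. In Padi4 KO, 1 was called higher (Cd74; 8.09% of all genes) and 3 lower (H2-DMa, H2-DMb1 and Ctss; 8.83%). As a median over the 7 genes, the log2 fold change came to -0.19 (WT) and 0.71 (Padi4 KO), beside -0.17 and -0.03 over all genes tested. Both medians are the value of H2-Ab1, which had 1 to 8 counts in a library, and H2-Aa at its bound stays on the same side of it. Over the 2 genes with at least 10 counts on average, Cd74 and Ctss, the median was 0.29 in WT and -0.0025 in Padi4 KO, from values of opposite sign. The balance of calls over all genes moved with the scaling: in WT 880 genes were higher and 1325 lower, against 630 and 2106 with library size alone, and in Padi4 KO 991 and 1082 against 624 and 2072.

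Cd74 encodes the invariant chain, which stabilises new class II molecules and guides them to the endosome. It lies at chr18:60803848-60812652 on the plus strand. The WT libraries had 9 and 7 counts in Nostim (13.9 and 12.1 CPM) and 21 and 16 in R848 (42.9 and 28.3 CPM). The Padi4 KO libraries had 16 and 22 counts in Nostim (18.1 and 16.0 CPM) and 38 and 52 in R848 (33.8 and 47.8 CPM). Every R848 library was above every Nostim library, whatever the genotype. The log2 fold change was 1.42 (SE 0.42) in WT and 1.27 (SE 0.28) in Padi4 KO, with edgeR adjusted p of 0.0042 and 3.12e-05. The WT call was kept in all 16 alternatives, which gave 1.11 to 1.80. In Padi4 KO the change came below 2-fold with library size alone (0.89) and without Padi4 KO R848 replicate 2 (0.87, adjusted p 0.0545 in edgeR).

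The classical chains H2-Aa, H2-Ab1 and H2-Eb1 form the peptide groove. C57BL/6 mice carry a disrupted H2-Ea, the partner of H2-Eb1, and its pseudogene entry H2-Ea-ps was at 0 counts in all 8 libraries. The 3 chains summed to 3 and 2 counts in WT Nostim, 6 and 6 in WT R848, 4 and 16 in Padi4 KO Nostim and 19 and 21 in Padi4 KO R848. In CPM these sums were 4.64 and 3.45, 12.2 and 10.6, 4.52 and 11.6, and 16.9 and 19.3. In WT the R848 sums were above both Nostim sums, and in Padi4 KO as well, but the second Padi4 KO Nostim library lay among the WT R848 values.

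H2-Aa (chr17:34282744-34287823, minus strand), the alpha chain, had 0 and 0 counts in WT Nostim and 1 and 3 in WT R848. It was called higher at an edgeR adjusted p of 0.0857. Against 3 counts over the WT Nostim group as a floor, its level in WT R848 was at least 1.25-fold higher by library totals. The Padi4 KO libraries had 1 and 8 counts in Nostim and 6 and 10 in R848, which overlapped in counts and in CPM (1.13 and 5.80 against 5.33 and 9.19). The log2 fold change there was 0.84 (SE 0.64, edgeR adjusted p 0.348). The WT call was lost in 8 of 15 alternatives, and the adjusted p over all 15 ranged from 0.0592 to 0.360. It was lost without WT Nostim replicate 1 (0.257), without WT Nostim replicate 2 (0.230) and without WT R848 replicate 2 (0.360).

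H2-Ab1 (chr17:34257689-34269419, plus strand), the beta chain that pairs with H2-Aa, had 2 and 2 counts in WT Nostim, 2 and 1 in WT R848, 3 and 5 in Padi4 KO Nostim and 8 and 5 in Padi4 KO R848. No change was called, with log2 fold changes of -0.19 (95% interval -2.46 to 2.09) in WT and 0.71 (-0.64 to 2.06) in Padi4 KO. H2-Eb1 (chr17:34305867-34316674, plus strand) had 1 and 0 counts in WT Nostim and 3 and 2 in WT R848, a ratio by library totals of 4.70 with a 95% counting interval of 0.526 to 223. In Padi4 KO it went from 0 and 3 counts to 5 and 6, with a log2 fold change of 1.80 (SE 0.91, edgeR adjusted p 0.131). In both genotypes its R848 libraries were above its Nostim libraries, and it was not called in either. Without Padi4 KO Nostim replicate 2, which leaves Nostim at 0 counts, it was called in Padi4 KO at an edgeR adjusted p of 0.0688. Counting intervals and floors cover counting error only, since reads without molecular identifiers are not independent molecules.

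H2-DMa and H2-DMb1 encode the 2 chains of H2-DM, which frees the groove for antigenic peptide. H2-DMa (chr17:34119541-34139101, plus strand) had 5 and 9 counts in WT Nostim (7.73 and 15.5 CPM) and 1 and 1 in WT R848 (2.04 and 1.77 CPM). In Padi4 KO it had 13 and 18 counts in Nostim (14.7 and 13.1 CPM) and 3 and 2 in R848 (2.67 and 1.84 CPM). The groups did not overlap in either genotype. The log2 fold change was -2.50 (SE 0.92) in WT and -2.53 (SE 0.60) in Padi4 KO, with edgeR adjusted p of 0.0293 and 0.000183. By library totals the level in WT R848 was 7.44-fold lower, with a counting interval of 1.71 to 67.4. The Padi4 KO call was kept in all 16 alternatives. The WT call was lost in 4 of 16, with adjusted p from 0.0091 to 0.270: with DESeq2 (0.175), without WT Nostim replicate 2 (0.270), without WT R848 replicate 1 (0.130) and without WT R848 replicate 2 (0.179), each with a log2 fold change of -1.95 or below.

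H2-DMb1 (chr17:34153072-34160230, plus strand) had 5 and 10 counts in WT Nostim (7.73 and 17.3 CPM) and 2 and 0 in WT R848 (4.08 and 0 CPM). In Padi4 KO it had 8 and 14 counts in Nostim (9.04 and 10.2 CPM) and 5 and 3 in R848 (4.44 and 2.76 CPM). It moved the same way as its partner, again with no overlap. The log2 fold change was -2.60 (SE 0.91) in WT and -1.39 (SE 0.59) in Padi4 KO, with edgeR adjusted p of 0.0205 and 0.0590. The WT call was lost with DESeq2 (0.164), without WT Nostim replicate 2 (0.277) and without WT R848 replicate 2 (0.363, log2 fold change -1.45), over a range of 0.0060 to 0.363. Without WT R848 replicate 1 the WT R848 group is at 0 counts and no fold is given. The Padi4 KO call was lost with DESeq2 (0.341), with thinned counts (0.584, log2 fold change -0.64), without Padi4 KO Nostim replicate 2 (0.257) and without Padi4 KO R848 replicate 2 (0.207), and at the threshold of 0.05. H2-DMb2, a near copy, is a second beta chain gene: 27.2% of the 50-base windows of H2-DMb1 transcripts also occur in H2-DMb2, and counts of the 2 genes are uncertain to that extent. H2-DMb2 had 3 and 6 counts in WT Nostim, 1 and 0 in WT R848, 1 and 3 in Padi4 KO Nostim and 2 and 0 in Padi4 KO R848, and was not called (edgeR adjusted p 0.103 in WT and 0.658 in Padi4 KO). H2-Oa and H2-Ob, the chains of the H2-DM inhibitor H2-O, had at most 1 and 2 counts in a library, and H2-Eb2 at most 2.

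Ctss encodes cathepsin S, the protease of the last steps of invariant chain breakdown in bone marrow derived antigen-presenting cells. It lies at chr3:95526786-95556403 on the plus strand. In WT it had 32 and 45 counts in Nostim (49.5 and 77.6 CPM) and 21 and 16 in R848 (42.9 and 28.3 CPM). Padi4 KO neutrophils had 109 and 217 counts in Nostim (123 and 157 CPM) and 69 and 62 in R848 (61.3 and 57.0 CPM). R848 libraries were below Nostim libraries in each genotype, although the Padi4 KO R848 libraries lay between the WT Nostim ones. The log2 fold change was -1.27 (SE 0.15) in Padi4 KO, with an edgeR adjusted p of 3.55e-15, and it was called in all 16 alternatives. In WT it was -0.84 (SE 0.29, edgeR adjusted p 0.0165), which is under 2-fold. There it came past 2-fold with library size alone (-1.14), without WT Nostim replicate 1 (-1.14) and without WT R848 replicate 1 (-1.01), and its adjusted p rose to 0.397 without WT Nostim replicate 2 and to 0.433 without WT R848 replicate 2 (-0.45).

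Ciita (chr16:10480059-10528418, plus strand), the transactivator that sets class II expression in most cells, had 2 counts in Padi4 KO Nostim replicate 2 and 0 in the other 7 libraries. By the floor of 3 counts, a count of 0 allows up to 5.33 CPM of library totals in the shallowest library. A change in Ciita was not detectable at this depth. Its exons overlap those of Dexi on the other strand, and the library kit does not mark strand.

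**Figure D3:**
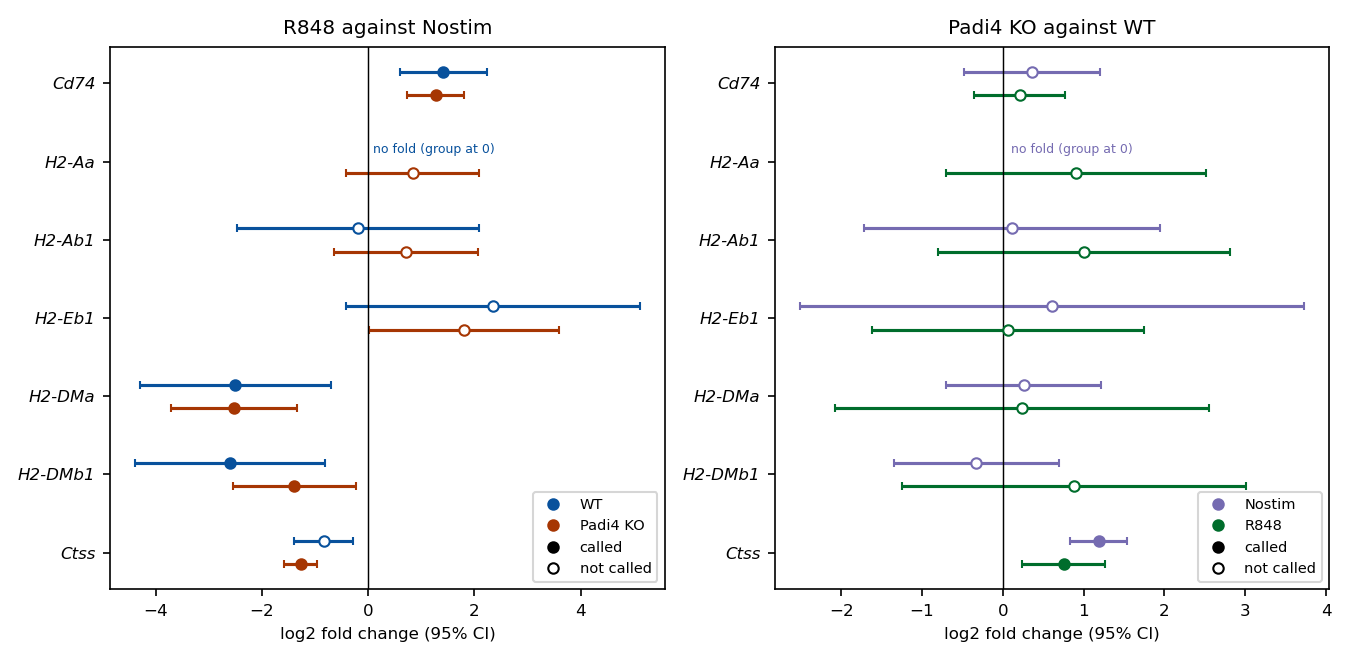
Log2 fold changes of the 7 tested genes with 95% intervals, R848 against Nostim on the left (WT and Padi4 KO) and Padi4 KO against WT on the right (Nostim and R848), with filled points for called and open points for uncalled comparisons. The points of Cd74 lie right of 0 and those of H2-DMa, H2-DMb1 and Ctss left of 0 after R848, and on the right Ctss alone has filled points, since H2-Aa in Nostim is set against a group at 0 and has no fold.

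The second question was whether Padi4 KO neutrophils differed from WT. Ctss was higher in Padi4 KO in both treatments, and no difference was called for Cd74, H2-Ab1, H2-Eb1 or H2-DM. These comparisons were called at an edgeR adjusted p below 0.1, with no limit on the fold. In Nostim, 2 of 7 genes were higher in Padi4 KO (Ctss and H2-Aa), where 9.54% of all genes were, and 0 lower, where 14.4% were. In R848, 1 of 7 was higher (Ctss; 9.44% of all genes) and 0 lower (7.84%). The median log2 fold change of the 7 was 0.36 in Nostim and 0.75 in R848, against -0.03 and 0.08 over all genes tested. The first is the value of Cd74, with H2-Aa at its bound above it, and the second is that of Ctss. Over all genes 1169 were higher and 1767 lower in Nostim and 1157 and 961 in R848, against 1901 and 562 and 1869 and 417 with library size alone.

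The Ctss levels of Padi4 KO Nostim (123 and 157 CPM) were above both WT Nostim libraries (49.5 and 77.6 CPM). The log2 difference was 1.19 (SE 0.18, edgeR adjusted p 2.28e-09), and it was called in all 16 alternatives with values of 0.88 to 1.53. After R848 the levels of 61.3 and 57.0 CPM in Padi4 KO were also above those of 42.9 and 28.3 CPM in WT. There the log2 difference was 0.75 (SE 0.26, edgeR adjusted p 0.0342). This call was lost in 5 of 16 alternatives, with adjusted p between 0.0029 and 0.585: with DESeq2 (0.345), with thinned counts (0.338), without WT R848 replicate 2 (0.585, log2 difference 0.38), without Padi4 KO R848 replicate 1 (0.245) and without Padi4 KO R848 replicate 2 (0.113).

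H2-Aa in Nostim went from 0 counts in both WT libraries to 1 and 8 in the Padi4 KO libraries (edgeR adjusted p 0.0571). Its Padi4 KO level was at least 1.98-fold higher by library totals, against 3 counts over the WT group. Of its 9 counts 8 came from replicate 2, which also held both Ciita counts and 3 of 3 H2-Eb1 counts of the group. The same library had 48 counts of the 14 dendritic cell markers against 15 in replicate 1, with 1102363 counts on genes in all against 716440. In CPM 6 of these markers were higher than in replicate 1, 4 were lower (Batf3, Ccr9, Cd209a and Kmo) and 4 were at 0 in both. Zbtb46, a transcription factor of classical dendritic cells, had 11 counts against 1. The part of these markers in the H2-Aa difference was not tested. Without this library the H2-Aa adjusted p was 0.536, and it was 0.257 and 0.221 without WT Nostim replicates 1 and 2.

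For Cd74 the log2 difference between Padi4 KO and WT was 0.36 (95% interval -0.48 to 1.20) in Nostim and 0.21 (-0.35 to 0.77) in R848. For H2-DMa it was 0.26 (-0.70 to 1.22) and 0.24 (-2.08 to 2.55), and for H2-DMb1 -0.33 (-1.35 to 0.69) and 0.88 (-1.25 to 3.01). The intervals show how large a difference these counts leave room for. In R848 the direction for Cd74 turned with thinned counts (-0.10) and without WT R848 replicate 2 (-0.16) or Padi4 KO R848 replicate 2 (-0.15).

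The third question was whether the response itself differed between genotypes. Of the 7 genes 0 were called in the interaction contrast of edgeR, where 4.69% of all genes were, and 0 had an unadjusted p below 0.05. DESeq2 called 0 as well, and gave an adjusted p to 1 of them. The difference of response was -0.15 on the log2 scale for Cd74 (95% interval -1.16 to 0.86), -0.44 for Ctss (-1.10 to 0.23) and 1.21 for H2-DMb1 (-1.15 to 3.57). Intervals of this width do not show that the genotypes responded alike.

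The fall of Ctss was set beside the other endosomal genes that act on the invariant chain or on antigen, a list of 9 genes with at least 10 counts each on average. In both genotypes 6 rose (Ctsb, Ctsd, Ctsl, Ctsz, Lgmn and Sppl2a) and 1 fell (Ifi30), with a median log2 fold change of 1.73 in WT and 1.59 in Padi4 KO. Over all genes 7.18% were called higher and 10.8% lower in WT, and 8.09% and 8.83% in Padi4 KO, and the counts for the lists that follow are to be read against the same shares. Ctsl, the cathepsin that takes the place of cathepsin S in thymic epithelium, had 6 and 1 counts in WT Nostim and 20 and 19 in WT R848. Its log2 fold change was 2.66 (SE 0.50) in WT and 1.58 (SE 0.26) in Padi4 KO. Sppl2a, the intramembrane protease that clears the last membrane-bound remnant of CD74, rose by 2.08 (SE 0.13) and 1.85 (SE 0.11) on the log2 scale. Lgmn, asparagine endopeptidase, rose by 1.78 (SE 0.55) in WT and 2.77 (SE 0.33) in Padi4 KO, and Ctsb, Ctsd and Ctsz rose by 1.59 to 2.39.

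Ifi30, the interferon-inducible thiol reductase that opens disulfide bonds of antigen, had its group means in the same order as Ctss. It had 40.2 and 51.8 CPM in WT Nostim, 12.2 and 19.5 in WT R848, 114 and 110 in Padi4 KO Nostim and 26.7 and 25.7 in Padi4 KO R848. The log2 fold change after R848 was -1.49 (SE 0.37) in WT and -2.09 (SE 0.19) in Padi4 KO. Like Ctss it was higher in Padi4 KO than in WT in Nostim, by 1.29 (SE 0.20, edgeR adjusted p 8.93e-09). In R848 the difference was 0.70 (SE 0.38, edgeR adjusted p 0.261). Between genotypes in Nostim, Ctsl and Ctsz were also higher in Padi4 KO and Ctsd was lower, against 9.54% and 14.4% of all genes. In R848, Ctsb and Lgmn were higher and Sppl2a lower, against 9.44% and 7.84%. Ctsd alone of the 9 had a called difference of response, 0.34 (SE 0.11, edgeR adjusted p 0.0408), where 4.69% of all genes had one.

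**Figure D4:**
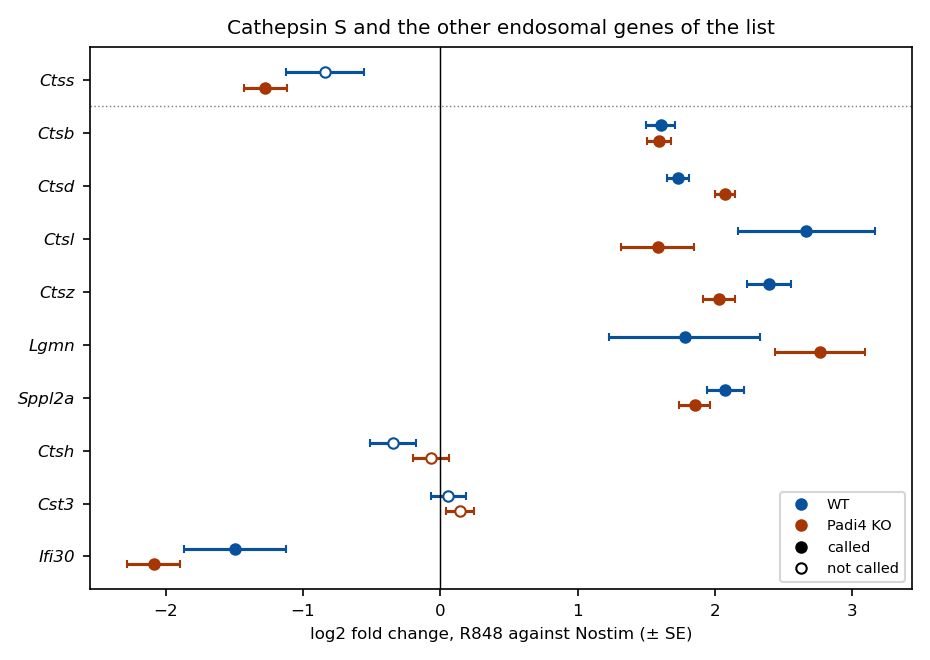
Log2 fold change after R848 (± SE) of Ctss, above the dotted line, and of the 9 other endosomal genes, in WT and Padi4 KO, with filled points for called responses. Ctss and Ifi30 lie left of 0 in both genotypes, Ctsb, Ctsd, Ctsl, Ctsz, Lgmn and Sppl2a right of it, and Ctsh and Cst3 near 0.

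The 7 factors that bind the X and Y boxes were detected in these cells, at a summed level of 265 to 300 CPM of library totals. After R848 none passed both limits upward in either genotype. Nfya, a subunit of the Y-box factor NF-Y, was higher by under 2-fold (0.75, SE 0.19, in WT and 0.70, SE 0.15, in Padi4 KO). Rfxank, a subunit of the X-box factor RFX, was called lower in WT (-1.60, SE 0.69, edgeR adjusted p 0.0727) and had a log2 fold change of 0.03 (SE 0.44) in Padi4 KO, and this difference of response was not called (edgeR adjusted p 0.366). In Nostim none of the 7 was called different between genotypes (9.54% of all genes were higher and 14.4% lower in Padi4 KO), and in R848 1 did, Creb1, which was lower in Padi4 KO (7.84% of all genes).

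Of 13 regulators of Ciita, Ifngr2, Jak2 and Prdm1 were called higher in both genotypes, Spi1 in Padi4 KO, and Irf8 lower in both. Prdm1 had 0 and 0 counts in WT Nostim and 4 and 2 in WT R848, so that its WT level was at least 1.88-fold higher by library totals against a floor of 3 counts in the group, which does not reach 2-fold. Ifngr2 and Jak2 carry the interferon gamma signal that induces Ciita. Ifngr2 rose by 1.61 (SE 0.13) in WT and 1.91 (SE 0.11) in Padi4 KO on the log2 scale, and Jak2 by 1.36 (SE 0.18) and 1.74 (SE 0.15). Irf8, a factor of the monocyte and dendritic lineages, had 40.2 and 19.0 CPM in WT Nostim and 12.2 and 10.6 in WT R848. Padi4 KO neutrophils had 55.4 and 52.9 CPM in Nostim and 15.1 and 11.02 in R848. Its log2 fold change was -1.39 (SE 0.45) in WT and -2.03 (SE 0.27) in Padi4 KO, and in Nostim it was higher in Padi4 KO by 0.84 (SE 0.27, edgeR adjusted p 0.0124). Among the regulators lower in Padi4 KO Nostim (14.4% of all genes) were Spi1, Ifngr2, Jak1 and Jak2. March1, March8 and Cd83, which set the turnover of surface class II, were not called in any of the 5 comparisons.

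MHC class I genes give a comparison with the other presentation pathway. Of 17 genes, 2 were called higher after R848 in WT (B2m and Psme2) and 2 lower (Psmb9 and Psmb10), and in Padi4 KO 3 higher (also H2-K1) and 3 lower (also Erap1). The shares over all genes were 7.18% higher and 10.8% lower in WT and 8.09% and 8.83% in Padi4 KO. B2m, the light chain of class I, rose by 1.39 on the log2 scale in both genotypes (SE 0.08 and 0.07). The immunoproteasome genes Psmb9 and Psmb10 fell by 1.81 (SE 0.33) and 1.40 (SE 0.48) in WT. The class I median was 0.23 in WT and -0.14 in Padi4 KO, beside -0.07 and 0.08 over all genes with at least 10 counts on average. In Nostim 5 of 17 were lower and 0 higher in Padi4 KO (14.4% and 9.54% of all genes), and in R848 3 and 0 (7.84% and 9.44%).

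Markers of the cells that usually express class II were read beside these results. B cell markers had few counts, 4 to 24 in a library for the 17 together, as did the 3 classical chains, with 2 to 21. Of the 17, 3 (Ebf1, Fcmr and Cr2) had 0 counts in all 8 libraries. Ms4a1 had at most 1 in a library, and the most frequent, Cd79a, between 2 and 11. Their summed level was 20.3 to 24.9 CPM of library totals in WT Nostim, 6.56 to 13.5 in WT R848, 12.6 to 19.96 in Padi4 KO Nostim and 14.4 to 21.2 in Padi4 KO R848. In WT this sum was lower in both R848 libraries than in both Nostim libraries, and in Padi4 KO its ranges overlapped. Bank1 alone had 7, 9, 3 and 11 counts in the Nostim libraries and 0 in the 4 R848 libraries. The other 16 markers together had 6 and 5 counts in WT Nostim and 4 and 9 in WT R848, which overlap. In Padi4 KO they had 6 and 11 counts in Nostim and 17 and 24 in R848, which do not overlap in counts or in CPM of library totals. Cd79b had at most 7 counts in a library. Cd72 and Spib had at most 3. Spib, a transcription factor of B cells and plasmacytoid dendritic cells, was called higher after R848 in Padi4 KO (edgeR adjusted p 0.0884). It went from 0 and 0 counts to 3 and 2, a bound of 1.31-fold by library totals over a floor of 3 counts in the group. The part of B cells in the rise of Cd74 was not tested.

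Of 14 dendritic cell markers 2 (Cox6a2 and Klk1) were at 0, and Flt3, Xcr1, Clec9a and Siglech had at most 3 counts in a library. The sum was 28.1 to 30.2 CPM of library totals in WT Nostim, 55.3 to 60.6 in WT R848, 20.9 to 43.5 in Padi4 KO Nostim and 55.5 to 62.8 in Padi4 KO R848. Itgax, the integrin CD11c, gave 64.7% to 89.2% of these counts in the WT and Padi4 KO R848 libraries, but 40% and 37.5% in Padi4 KO Nostim. It had 12 and 11 counts in WT Nostim and 32 and 33 in WT R848 and rose by 1.71 (SE 0.33) in WT and 2.13 (SE 0.29) in Padi4 KO. Itgax thus rose with Cd74. The other 13 markers together had 6 and 6 counts in WT Nostim and 5 and 4 in WT R848, and 9 and 30 in Padi4 KO Nostim and 24 and 9 in Padi4 KO R848, so that the Padi4 KO groups overlapped. Of the 11 tested, 1 was called higher in WT and 2 in Padi4 KO and 0 lower, with a median log2 fold change of 0 and -0.22. In Padi4 KO Ccr7, a chemokine receptor of mature dendritic cells, was also called higher after R848, from 0 and 0 counts to 8 and 3, at least 2.88-fold by library totals over a floor of 3 counts in the group. The authors' methods give a high purity of CD11b+ Ly6G+ neutrophils after magnetic isolation. The share of other cells in these libraries was not measured here. The part of dendritic cells in the rise of Cd74 was not tested.

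Monocyte and macrophage markers went both ways. After R848 6 of 19 tested rose and 2 fell in WT (7 and 3 in Padi4 KO), with sums of 2098 to 2253 CPM of library totals in WT Nostim, 6729 to 6799 in WT R848, 2985 to 3000 in Padi4 KO Nostim and 6426 to 6630 in Padi4 KO R848. In TMM-scaled CPM the sums were 2036 to 2233, 7965 to 8467, 2386 to 2428 and 6695 to 6938 in the same groups. No marker of the list was at 0 in all libraries. Adgre1 (F4/80) rose by 5.96 (SE 0.13) in WT and 5.63 (SE 0.12) in Padi4 KO, Mpeg1 by 2.83 (SE 0.08) and 2.28 (SE 0.07), and Csf1r by 2.72 (SE 0.12) and 2.62 (SE 0.09). Ly6c2 was lower by under 2-fold, at -0.81 (SE 0.09) and -0.66 (SE 0.08). The complement genes C1qa, C1qb and C1qc, typical of resident macrophages, had at most 3 counts in a library.

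Ccr2 and F13a1, markers of classical monocytes, had their group means in the same order as Ctss, while Ly6c2, another such marker, was lower in Padi4 KO Nostim (849 against 1024 CPM, log2 difference -0.27, SE 0.08). F13a1 had 165 and 188 CPM in WT Nostim, 49.0 and 58.4 in WT R848, 370 and 375 in Padi4 KO Nostim and 100 and 108 in Padi4 KO R848. It fell by 1.70 (SE 0.20) in WT and 1.83 (SE 0.12) in Padi4 KO after R848, and it was higher in Padi4 KO by 1.08 (SE 0.12) in Nostim and 0.95 (SE 0.21) in R848. Ccr2, which was chosen after its values were seen, was higher in Padi4 KO by 1.56 (SE 0.18) in Nostim and 0.88 (SE 0.29) in R848. In each treatment 4 markers of the list, Csf1r, Ccr2, F13a1 and Ms4a6c, were higher in Padi4 KO (in R848 Spic too), where 9.54% of all genes were in Nostim and 9.44% in R848. In Nostim 3 were lower (Ly6c2, Vcam1 and Marco), and in R848 Adgre1, Vcam1 and Mpeg1 (14.4% and 7.84% of all genes). The part of monocytes in the Ctss and Ifi30 differences was not tested.

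Patterns over the 8 libraries were compared with the mean log2 CPM of Cd74, H2-Aa, H2-Ab1 and H2-Eb1. Among 6910 other genes with at least 10 counts on average, the highest Pearson correlations were those of Cat (catalase, 0.975), Mcrs1 (0.968), Psmb6 (0.968), Necap2 (0.959) and Cx3cr1 (0.958). The 8 libraries form 4 groups and share their treatments, so these values describe the shape of a profile only. Cat, the closest, averaged 20.2 CPM in WT Nostim, 61.0 in WT R848, 31.9 in Padi4 KO Nostim and 94.1 in Padi4 KO R848. Among the class II genes themselves, the correlation of log2 CPM was 0.879 between Cd74 and H2-Eb1 and 0.869 between H2-DMa and H2-DMb1. It was -0.893 between Cd74 and H2-DMa, and -0.488 between Cd74 and Ctss. In these libraries the genes therefore fell on both sides: Cd74 with H2-Eb1, and H2-DMa with H2-DMb1 and Ctss (0.786 and 0.742).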

How the data were processed

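RNA was sequenced from 8 libraries (TruSeq RNA kit v2, paired-end, MiSeq). The authors checked reads with FastQC 0.11.7, trimmed them with cutadapt 1.16, removed low-quality reads, aligned to mm10 with STAR 2.5.3a and counted with HTSeq 0.6.1p1. The deposited values are raw counts per gene symbol. Reads assigned to no gene, or to more than 1, were left out, and the rest made up 87.0% to 89.5% of a library. The annotation and strand setting are not given in the sources used here.

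Groups and replicate numbers come from the sample labels. Genes with at least 1 count in at least 2 libraries were fitted with edgeR 4.0.16 (R 4.3.3, TMM factors, robust quasi-likelihood, 1 mean per group), with Benjamini-Hochberg adjustment over 12254 genes. SE is the absolute log2 fold change over the square root of F. CPM are TMM-scaled except where library totals are named. The script was tested on simulated data. Alternatives were DESeq2 1.42.0, other scalings and filters, a replicate block, an FDR of 0.05, thinning and leaving out each library. Duplicates differed by more than sampling noise in each group (chi-square over degrees of freedom 1.06 to 1.64).

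The genes, pathway lists and marker lists were chosen with earlier results of these data known. Named beside the 8 genes were other class II chains, list genes with at least 10 counts on average and a call, the 5 most frequent markers of B cells, dendritic cells and monocytes or macrophages, and the 5 most similar profiles. Other marker genes, Ctsh and Cst3 were named after their values were seen, and some list genes are not reported here. Ly6g, Epb42, Faim3 and Emr1 were not analysed here. Exon positions and lengths are from GENCODE M21 (GRCm38) and promoters from RefSeq.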

Additional observations from a re-analysis of the deposited data

How the results depend on the processing

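Among single genes and comparisons, 469 of the values under alternatives kept their direction and their side of the threshold, 32 kept the direction and lost the call, 4 gained it and 23 turned. The number of class II genes called in the WT response (4) was 1 with DESeq2 and 2 with the filterByExpr filter, and 1 to 4 when leaving out single libraries. In the Padi4 KO response (4) it was 2 to 4 without single libraries. For Padi4 KO against WT in Nostim (2) it was 1 with DESeq2, with filterByExpr, at an FDR of 0.05 and with thinned counts, and 1 to 2 without single libraries. In R848 (1) it was 0 with DESeq2 and with thinned counts, and 0 to 1 without single libraries. Fewer genes are tested with filterByExpr, which kept 3 of the 8, and DESeq2 gave an adjusted p to 4 of them in the genotype comparisons and 1 in the difference of response. Other causes were not tested. Ciita has no value in the fit, and alternatives that left a gene out have none for it.

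All turned directions concern uncalled values near 0 or few counts. H2-Eb1 turned for Padi4 KO against WT in R848 with relative log expression factors (-0.030). With thinned counts, H2-Ab1 turned in the WT response (0.019) and in Nostim (-0.55), H2-Eb1 in Nostim (-0.14), R848 (-0.13) and the difference of response (0.013), and Cd74 in R848 (-0.10). Without single libraries the log2 values ranged from -0.16 to 0.38 for Cd74 in R848, from -0.70 to 0.41 for H2-Ab1 in the WT response, and for H2-DMa from -0.18 to 0.81 in Nostim, from -0.14 to 0.37 in R848 and from -0.58 to 0.41 in the difference of response. They ranged for H2-DMb1 from -0.82 to 0.32 in Nostim, from -0.25 to 4.69 in R848 and from -0.064 to 4.89 in the difference of response, and for H2-Eb1 from -2.58 to 3.36, from -0.37 to 0.33 and from -3.29 to 2.65. The ends 4.69, 4.89, -2.58, 3.36, -3.29 and 2.65 are fitted values with a group left at 0 counts and give no fold.

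No pairing by replicate number was seen: same-numbered libraries deviated together with correlations of -0.020 to 0.020 over 6912 genes. Much of the deviation between duplicates is sampling noise (chi-square over degrees of freedom 1.06 to 1.64), so a shared mouse or batch could be missed. With a replicate block the WT response of H2-Aa lost its call (edgeR adjusted p 0.108), which left 3 genes called in WT, and 4, 2, 1 and 0 in the other comparisons. The median log2 fold change of genes with at least 10 counts on average was -0.07 in WT and 0.08 in Padi4 KO after R848, and -0.38 and -0.30 with library size alone, so that changes on the 2 scales differ by about that shift. Where leaving out a library left 1 in a group, that library was assumed to vary like the other groups. Depth limits the chain genes and Ciita most, since 6 of the 8 genes averaged under 10 counts.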

Other observations

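Profiles like that of Ctss were looked up after its values were seen. The highest Pearson correlations of log2 CPM over the 8 libraries were those of Srm (spermidine synthase, 0.987), Dhx9 (0.986), Ccr2 (0.970), Pdcd11 (0.962) and Pfas (0.962). Srm averaged 6.72 CPM in WT Nostim, 1.02 in WT R848, 38.9 in Padi4 KO Nostim and 8.10 in Padi4 KO R848. Pfas, an enzyme of purine synthesis, averaged 15.6, 4.97, 38.2 and 12.2 CPM in the same groups. These genes and Ctss thus had their highest group mean in Padi4 KO Nostim and their lowest in WT R848.

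The stromal genes Col1a1 and Col1a2, which encode the chains of type I collagen, fell after R848 together with H2-DM. Col1a1 had 73 and 54 counts in WT Nostim, 3 and 7 in WT R848, 172 and 316 in Padi4 KO Nostim and 14 and 18 in Padi4 KO R848. The part of cells other than neutrophils in the fall of H2-DMa and H2-DMb1 was not tested.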
